A study of Mus musculus with 14 samples.

Results

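Class I olfactory receptors are the odorant receptors of the fish-like branch of the family, and in the mouse their genes sit together in a cluster on chromosome 7. They were taken here as the protein-coding genes named Olfr with a number from 543 to 692, without letters or pseudogene suffixes, which gave 114 of the 21312 protein-coding genes listed in at least 1 tumour. A gene table of the mouse placed all 114 on chromosome 7, and the files themselves carry no column for the receptor class. The measurement was whole-exome sequencing of DNA from 12 p53null mammary tumours, 3 in each of 4 groups, reported as the number of variants per transcript. DNA variants, not expression, were counted, so the counts say nothing of whether any receptor was used in these tumours.

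Every tumour grew from a mammary fragment of a Balb/c donor lacking p53, aged 8 to 10 weeks, and was collected at a diameter of up to 2 cm. Stiff tumours (A7, A8 and A9) grew in fat pads cleared of their own epithelium and filled with a collagen 1 and basement membrane gel whose collagen had been crosslinked with 500 mM L-ribose, a sugar the cells do not metabolise. Soft tumours (A1, A2 and A3) grew in the same gel without L-ribose, and both gel groups were set up in wild-type females of 3 to 4 weeks. KO host tumours (B4, B5 and B6) grew in LysM-Cre mice knocked out for GPX4, an enzyme that detoxifies peroxidised lipids, and WT host tumours (B1, B2 and B3) grew in LysM-Cre mice wild-type for GPX4, and the labels name no gel for either. LysM-Cre acts in myeloid cells of the host, not in the implanted fragment, and host cells left in a tumour share its DNA library. Samples of tail DNA from 2 wild-type Balb/c mice were not analysed here. The comparisons address whether a stiffer surrounding tissue, or lipid peroxidation in host myeloid cells, goes with more damage to tumour DNA.

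An olfactory receptor is a membrane protein with 7 passes through the membrane, encoded by a short gene whose coding sequence usually lies in a single exon. In the nose each sensory neuron uses a single receptor allele, and the bound receptor acts through a G protein, adenylyl cyclase and a cyclic nucleotide-gated channel. Class I receptors respond mostly to water-soluble odorants, among them carboxylic acids. Their cluster is interrupted by the beta-globin genes and by Trim genes, which encode ubiquitin ligases of innate immunity. The receptors arose by repeated local duplication, so that close copies lie side by side.

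How alike such copies can be was read from RefSeq windows of 300 bases around the annotated gene start (build GRCm38.p6, 250 bases before and 50 after), which were found for 97 of the 114 genes. The windows are shown for close copies whose variant counts differed and for the genes with the highest counts. In the windows of Olfr596 and Olfr603 all 300 bases were the same, although the genes lie apart and on opposite strands. The capitals mark bases 251 to 253, where 75 of the 97 windows carry the letters of a start codon.
Olfr596 (chr7:103309473-103309772, GRCm38.p6, plus strand): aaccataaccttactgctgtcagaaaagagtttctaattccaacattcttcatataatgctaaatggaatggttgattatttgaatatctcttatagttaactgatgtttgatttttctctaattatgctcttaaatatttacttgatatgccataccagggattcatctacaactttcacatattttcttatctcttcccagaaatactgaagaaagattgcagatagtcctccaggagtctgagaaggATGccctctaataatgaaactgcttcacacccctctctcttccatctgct
Olfr603 (chr7:103383951-103384250, GRCm38.p6, minus strand): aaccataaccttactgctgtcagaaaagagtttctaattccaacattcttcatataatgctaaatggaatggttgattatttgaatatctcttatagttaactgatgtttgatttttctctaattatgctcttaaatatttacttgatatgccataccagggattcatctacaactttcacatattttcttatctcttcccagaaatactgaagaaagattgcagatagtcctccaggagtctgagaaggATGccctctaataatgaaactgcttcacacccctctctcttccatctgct
The neighbours Olfr611 and Olfr612 shared 290 of 300 bases (96.7%), and the capitals mark the letters by which each differs from the other, a shift of 1 base near the start of the window included.
Olfr611 (chr7:103518333-103518632, GRCm38.p6, minus strand): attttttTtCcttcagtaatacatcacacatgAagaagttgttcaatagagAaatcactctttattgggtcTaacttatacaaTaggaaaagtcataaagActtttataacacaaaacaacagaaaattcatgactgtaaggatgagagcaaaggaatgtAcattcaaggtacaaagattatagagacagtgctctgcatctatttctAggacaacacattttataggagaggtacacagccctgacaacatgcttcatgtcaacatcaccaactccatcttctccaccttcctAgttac
Olfr612 (chr7:103539183-103539482, GRCm38.p6, minus strand): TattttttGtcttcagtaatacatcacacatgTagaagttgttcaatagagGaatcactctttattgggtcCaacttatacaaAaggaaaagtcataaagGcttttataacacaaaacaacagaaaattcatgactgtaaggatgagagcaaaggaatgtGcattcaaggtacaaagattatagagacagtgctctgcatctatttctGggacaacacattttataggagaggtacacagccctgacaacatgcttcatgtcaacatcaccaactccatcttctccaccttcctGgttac
Olfr609 and Olfr639, the genes with the most coding variants, had no such close copy among these windows. The best match of Olfr609 was Olfr594 at 64.7% of bases, and the best match of Olfr639 stood at 62.7%. Capitals again mark bases 251 to 253.
Olfr609 (chr7:103492827-103493126, GRCm38.p6, minus strand): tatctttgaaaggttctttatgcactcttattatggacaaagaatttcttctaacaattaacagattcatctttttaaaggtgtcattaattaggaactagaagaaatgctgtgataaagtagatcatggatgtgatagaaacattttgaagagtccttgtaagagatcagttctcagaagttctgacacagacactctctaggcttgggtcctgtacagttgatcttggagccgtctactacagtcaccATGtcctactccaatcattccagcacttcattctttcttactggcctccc
Olfr639 (chr7:104012651-104012950, GRCm38.p6, minus strand): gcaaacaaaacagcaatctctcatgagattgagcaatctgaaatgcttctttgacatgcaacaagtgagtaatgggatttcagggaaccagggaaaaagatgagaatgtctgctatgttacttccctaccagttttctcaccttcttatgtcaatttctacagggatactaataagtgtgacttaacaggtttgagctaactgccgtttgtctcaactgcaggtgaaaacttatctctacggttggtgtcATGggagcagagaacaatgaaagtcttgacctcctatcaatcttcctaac
In all, 18 of the 97 windows matched that of another class I gene at 70% or more of their bases. The TATA-box letters TATAAA were found on either strand in 41.2% of the class I windows, as in the Olfr611 and Olfr612 windows above, against 13.6% of all 32851 windows. The homeodomain-type letters TAATTG were found in 21.6% of them, against 8.00% of all windows, and TAATTA in 15.5%, against 5.29%. The Olfr609 window holds both of these. All of these letters are rich in A and T, and the base composition of the windows was not compared. In 75 of the 97 windows the annotated start carries the letters of a start codon, so it need not be where transcription begins. The shares are therefore not read as an enrichment of promoter sites.

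Variants were split by the impact that the annotation program predicts. HIGH takes in frameshifts and gained stop codons, MODERATE takes in missense and in-frame changes, LOW takes in synonymous ones, and MODIFIER is mostly intronic sequence and sequence beside the gene. The sum of HIGH, MODERATE and LOW is called coding variants and the sum of HIGH and MODERATE protein-altering variants. The count of a gene was the highest among its protein-coding transcripts, and a gene not listed in a tumour was taken as 0. Inherited differences between Balb/c and the reference genome, changes acquired in a tumour and false calls cannot be told apart in these counts. The labels do not say which tumours came from separate litters or donors, so the spread between tumours may be partly technical.

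Coding variants were concentrated in few receptors. Of the 114 genes, 57 (50%) had no coding variant in any tumour, 48 had a protein-altering and 23 a HIGH-impact variant. The 4 highest genes, Olfr609, Olfr639, Olfr603 and Olfr589, held 61.5% of the coding variants of the cluster, and Olfr609 alone held 27.1%. Such a share depends on the number of genes in a set. Among the 975 other numbered Olfr genes the 4 highest held 15.0%. Among the 280 of these on chromosome 2 they held 23.9%, and among the 108 elsewhere on chromosome 7 34.6%. In 2 smaller sets described below, 37 genes of odour transduction and 39 neighbouring genes, the shares were 59.0% and 69.6%. A coding variant in at least 1 tumour was found in 51.3% of other numbered Olfr genes and 65.9% of all protein-coding genes. The mean over genes and tumours was 1.29 coding variants per class I gene, 0.540 per other numbered Olfr gene and 0.905 per protein-coding gene, while the median class I gene had 0.0417 and the median protein-coding gene 0.167.

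Olfr609 (ENSMUSG00000046396) had the most coding variants. It held 44, 40 and 45 in stiff tumours and 47, 39 and 37 in soft tumours, 37, 38 and 38 in KO host tumours and 36, 39 and 39 in WT host tumours. A1, A7, A8 and A9, all gel tumours, stood above every host tumour, while A2 and A3 lay within the range of the host tumours. HIGH-impact variants numbered 6 in each tumour but B5, which had 4, and all of them were frameshifts. No stop-gained variant of Olfr609 was listed in any tumour.

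Olfr639 (ENSMUSG00000066263) came next, with 28, 24 and 21 coding variants in stiff tumours, 26, 20 and 22 in soft tumours, 20, 19 and 21 in KO host tumours and 20 in each WT host tumour. The host tumours lay within 19 to 21 and the gel tumours reached from 20 to 28. Each of the 12 tumours carried 2 stop-gained variants of this gene, and a frameshift was listed only in A7 and A8, with 1 in each.

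Olfr603 (ENSMUSG00000059874), the copy with the window identical to that of Olfr596, varied most among the 4, from 11 to 26. Its coding variants numbered 20, 15 and 15 in stiff, 18, 20 and 11 in soft, 26, 15 and 19 in KO host and 17, 14 and 11 in WT host tumours. The highest value stood in B4 and the lowest in A3 and B3, so that each pair of groups overlapped. A stop-gained variant was present in all 12 tumours, and HIGH-impact variants ran from 2 to 5.

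Its copy Olfr596 (ENSMUSG00000073953) was nearly constant. It had 6 coding variants in A9, B1 and B3 and 5 in the other 9 tumours, and each tumour carried 1 stop-gained and 1 frameshift variant. Olfr589 (ENSMUSG00000051362) held 15, 12 and 14 coding variants in stiff, 11, 12 and 11 in soft, 9, 14 and 11 in KO host and 13, 12 and 12 in WT host tumours. It had no HIGH-impact variant in any tumour, unlike the other 3 of the highest genes.

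**Figure D1:**
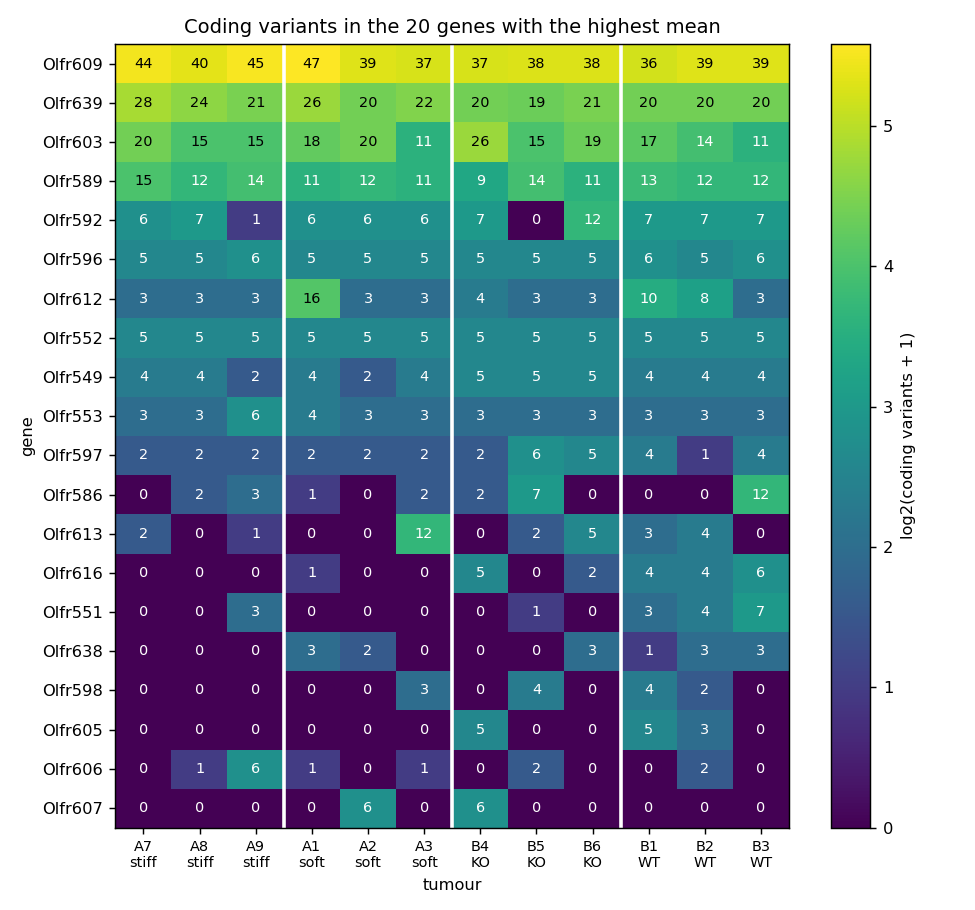
Coding variants (HIGH, MODERATE and LOW) in the 20 class I receptor genes with the highest mean, with genes down the page and tumours across it, stiff and soft gel tumours to the left and KO and WT host tumours to the right. The number in a cell is the count and the colour its log2 after adding 1. Olfr552 stands at 5 in all 12 tumours, while Olfr612, Olfr613 and Olfr586 stand out in few tumours.

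A set of 12 genes carried a coding variant in all 12 tumours, and 7 of them a protein-altering one. The set made up 10.5% of the class I genes, against 10.3% of all protein-coding genes. Among other numbered Olfr genes the share was 6.56%, and among the 280 of these on chromosome 2 it was 11.4%. The 12 genes were Olfr549, Olfr552, Olfr553, Olfr589, Olfr596, Olfr597, Olfr603, Olfr609, Olfr612, Olfr615, Olfr639 and Olfr641. Olfr552 (ENSMUSG00000073973) had 5 coding variants, 4 of them protein-altering, in every tumour, and Olfr615 and Olfr641 had 1 LOW-impact variant in every tumour. At the other end, 17 genes had coding variants in only 1 tumour (14.9%, against 18.6% of all protein-coding genes).

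Adding up each gene's lowest count gave 96 coding variants that every tumour reached. These were 56.8% to 72.7% of a tumour's class I coding variants, against 30.9% to 56.0% in the other numbered Olfr genes and 27.8% to 52.7% in all protein-coding genes. In the other numbered Olfr genes on chromosome 2 the range was 35.8% to 70%, which overlaps that of class I. The 4 highest genes supplied 75 of the 96. The counts do not give positions, so equal counts do not show that the variants were the same.

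**Figure D2:**
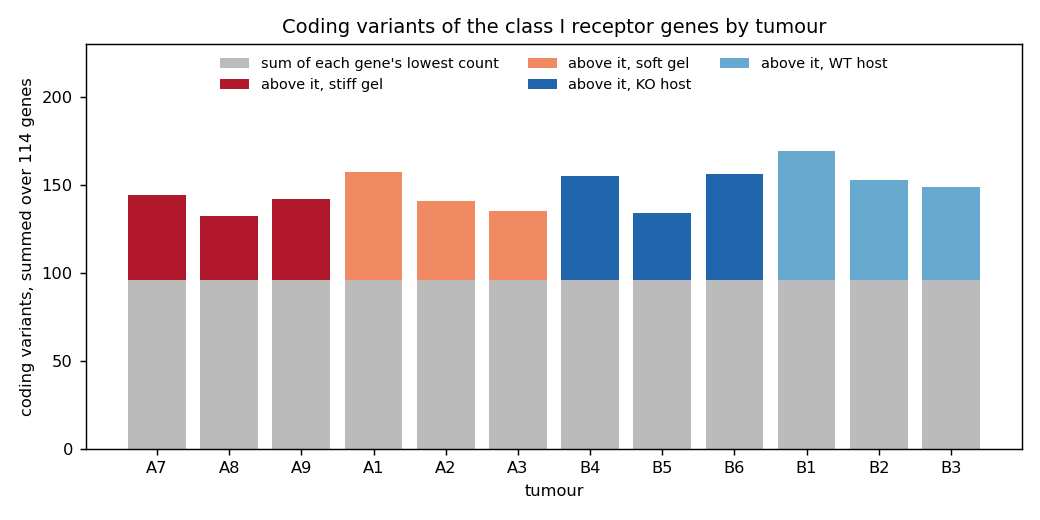
Coding variants summed over the 114 class I receptor genes in each tumour, with the sum of each gene's lowest count (96) in grey and the remainder in the colour of the group. Sums run from 132 in A8 to 169 in B1.

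Alongside the constant counts there were isolated high ones. In 23 pairs of a gene and a tumour, over 15 genes, the coding count lay at least 5 above the median of that gene. This cut takes in the spread of genes with high counts in every tumour, such as Olfr609 in A1, A7 and A9 and Olfr639 in A1 and A7. The share of such pairs among other genes was not counted. The 23 pairs fell 4 in stiff, 6 in soft, 5 in KO host and 8 in WT host tumours, and A8 alone had none. Olfr612 (ENSMUSG00000094119) had 16 in A1, 10 in B1 and 8 in B2, against 4 in B4 and 3 in each of the other 8 tumours. Only A1, B1 and B2 had protein-altering variants of Olfr612, 8 in A1, 1 in B1 and 2 in B2. Its near-copy Olfr611 had 10 coding variants in B1, 7 of them synonymous, and 0 in every other tumour.

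Olfr613 (ENSMUSG00000078624) had 12 coding variants in A3, 4 of them of HIGH impact, and no more than 5 in any other tumour. Olfr586 (ENSMUSG00000066268) had 12 in B3 and 7 in B5, and at most 3 elsewhere. Olfr607 had 6 in A2 and in B4 but none in any other tumour, and Olfr601 had 7 in A2 and 2 in A1 and was otherwise at 0. Olfr612, Olfr586 and Olfr607 were each high in tumours of more than 1 group. Whether reads from a close copy were placed on these genes was not tested.

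Tumours A9 and B5 shared several low counts. Olfr592 (ENSMUSG00000073956) had 1 coding variant in A9 and 0 in B5, against 6 to 12 in the other 10 tumours, and its stop-gained variant, present in those 10, was listed in neither. Its protein-altering count was 0 in both, against 4 to 7. For coding counts it was the only class I gene lower in both, 1 of 57 with a variant (1.75%), against 1.27% of all protein-coding genes. For protein-altering counts the share was 1 of 48 (2.08%), against 1.26%, and for HIGH-impact counts 1 of 23 (4.35%), against 0.879%. MODIFIER variants were lower in A9 and B5 than in each of the other 10 tumours in 14 class I genes, among them Olfr591, with 17 in A9 and 16 in B5 against 36 to 85, and Olfr639, with 74 and 70 against 94 to 158. These were 12.3% of the class I genes, against 6.25% of all protein-coding genes with a MODIFIER variant. Summed over the 114 genes, MODIFIER variants numbered 1059 in A9 and 1082 in B5, against 1356 to 2132 elsewhere. Their coding sums, 142 in A9 and 134 in B5, lay inside the range of the others. Over all protein-coding genes A9 and B5 also had the fewest MODIFIER variants, 335629 and 334678, against at least 357191 elsewhere. B5 had the fewest coding variants over all genes, 14434, and B1 the most, 27337, and the part of these totals in the class I counts was not tested.

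HIGH-impact variants recurred in the same few receptors. Olfr609, Olfr603, Olfr639 and Olfr596 carried at least 1 in all 12 tumours and Olfr592 in 10, while 18 of the 23 genes with a HIGH-impact variant had it in 1 or 2 tumours. A HIGH-impact variant in all 12 tumours was thus found in 4 of 114 class I genes. The background was 633 of 21312 protein-coding genes and 13 of 975 other numbered Olfr genes. Of the genes with any HIGH-impact variant it was 4 of 23, against 633 of 6595 and 13 of 175. Summed over the cluster, HIGH-impact variants ran from 13 in A9 and B5 to 19 in A1 and B4. Frameshift variants numbered 9 to 14 and stop-gained variants 4 to 7 per tumour, where a variant with both effects counts in each.

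For every synonymous variant the class I genes carried 1.56 to 2.24 missense variants, with the median tumour at 1.89. The range was 1.09 to 1.25 in the other numbered Olfr genes and 1.21 to 1.31 in all protein-coding genes, so the class I ratio was the higher in 12 of 12 tumours. The tumours share most of these counts, so they are not 12 independent observations and no test was made. Without the 4 highest genes, chosen after their values were seen, the ratio of the other 110 ran from 1.10 in B1 to 2.71 in B2 and was above that of all protein-coding genes in all tumours but A7 and B1. Frameshift variants per 100 missense variants went the other way, 10.8 to 17.5 in class I genes against 19.9 to 30.8 in all protein-coding genes, and stop-gained variants per 100 missense overlapped, 4.82 to 10.1 against 6.27 to 7.16.

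**Figure D3:**
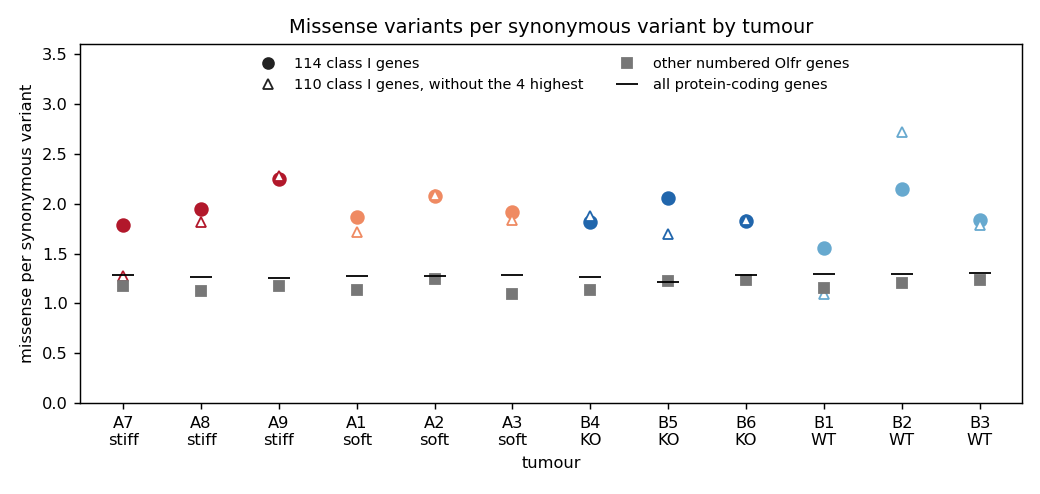
Missense variants per synonymous variant in each tumour, for the 114 class I receptor genes (filled circles), the 110 left without the 4 highest (open triangles), other numbered Olfr genes (squares) and all protein-coding genes (dashes). The circles lie between 1.56 and 2.24, above the squares and dashes in each tumour, and the triangles spread from 1.10 to 2.71.

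Variants were not spread evenly along the cluster. In the order of the gene table, Olfr550 to Olfr630, between Trim21 and the globin genes, comprise 62 genes and held 79.4% of the class I coding variants. The 13 genes from Olfr632 to Olfr649, between the globin genes and Trim6, held 16.8%, and the 5 genes before Trim21 held 2.83%. The 34 genes from Olfr651 to Olfr692, beyond the Trim genes, held 0.962%, with 11 of them carrying any coding variant.

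The counts were high or low in runs of neighbouring genes, whose ends were set after the values were seen. The 28 genes from Olfr582 to Olfr616 held 71.5% of the coding variants, and 25 of them carried at least 1. Next to them, the 17 genes from Olfr554 to Olfr575 held 0.792% and the 12 from Olfr617 to Olfr633 held 0.0566%, a single variant in 1 gene. The 6 genes from Olfr635 to Olfr642, Olfr639 among them, held 16.7%, and the 5 from Olfr549 to Olfr553 held 9.68%.

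MODIFIER variants followed the same runs. They averaged 36.1 per gene and tumour from Olfr582 to Olfr616 and 48.9 from Olfr635 to Olfr642, against 1.27 from Olfr554 to Olfr575, 1.45 from Olfr617 to Olfr633 and 0.699 from Olfr651 to Olfr692. Inside the rich runs some coding sequences were free of variants. Olfr599, Olfr600 and Olfr635 had no coding variant in any tumour while their MODIFIER variants averaged 63.3, 42.7 and 48.1. A variant near several genes counts in each of them, so MODIFIER counts of neighbours are not independent.

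**Figure D4:**
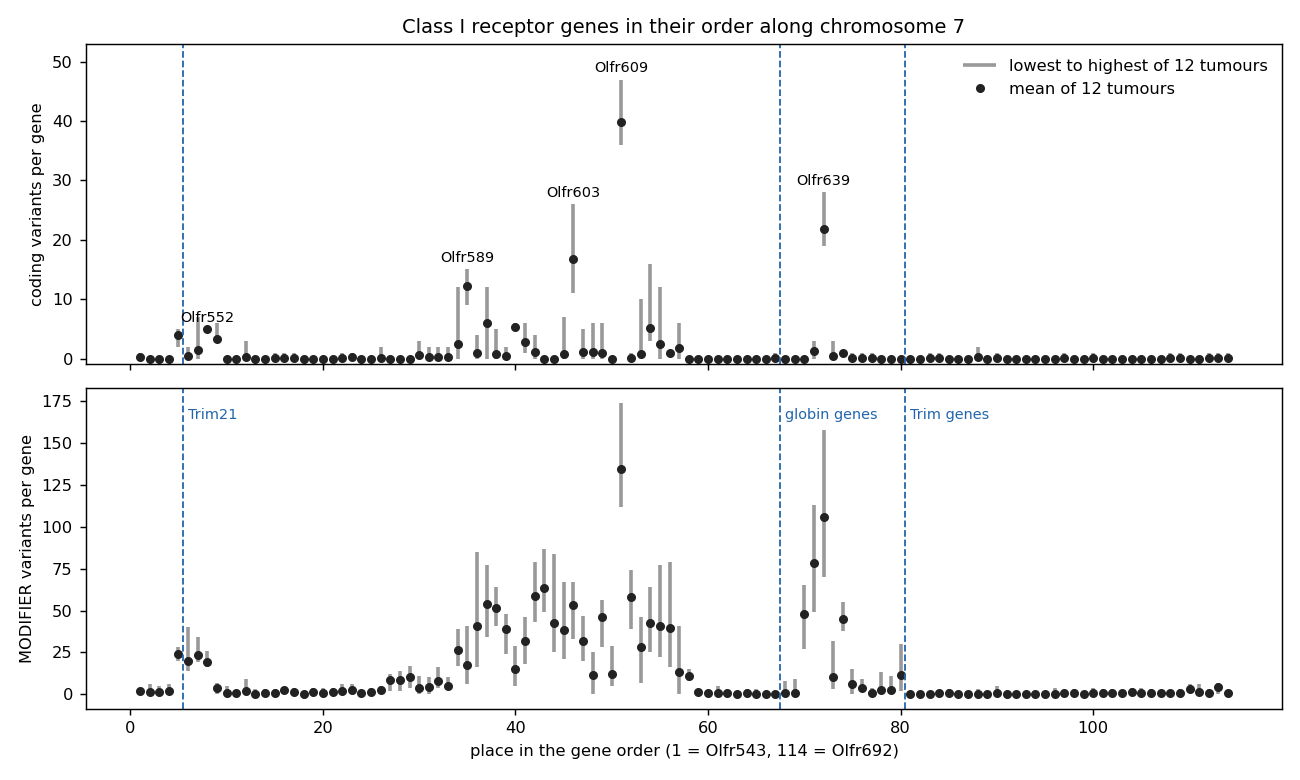
Coding variants (upper panel) and MODIFIER variants (lower panel) per gene for the 114 class I receptor genes in their order along chromosome 7, with the mean of 12 tumours as points and the range from the lowest to the highest tumour as grey bars. Dashed lines mark Trim21, the globin genes and the Trim genes. Coding variants peak at Olfr609, with a mean of 39.9, and both kinds are near 0 beyond the Trim genes.

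A pair of receptors with known ligands, looked up by name, lay outside the rich runs. Olfr544, which responds to azelaic acid, and Olfr558, which responds to short-chain fatty acids, had no coding variant in any tumour. Of the other 9 numbered Olfr genes inside the span, Olfr78, a receptor for short-chain fatty acids and lactate, had none either, and Olfr66 had 4 to 7. The 108 other numbered Olfr genes elsewhere on chromosome 7 had a mean of 0.0980 coding variants per gene, and none of them had a coding variant in all 12 tumours. The 280 on chromosome 2, which are class II receptors, averaged 0.688.

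Genes inside or next to the cluster had at most 14 coding variants in a tumour. Among the receptors, a larger set, Olfr609 reached 47 and Olfr612, outside the 4 highest, reached 16. Of 47 neighbouring genes on a list drawn from textbook knowledge 39 were listed, 23 with a coding variant and 5 with one in all 12 tumours: Trim21, Usp17lc, Ubqln5, Stim1 and Gvin1. Usp17lc, a deubiquitinating enzyme, had 3 to 14 and Trim21, an intracellular antibody receptor, 1 to 12. The globin genes stood at or near 0, with at most 2 for Hbb-bt. Of the 37 genes of odour transduction and receptor choice, all listed, 30 had a coding variant and 4 had one in all tumours, Cngb1, Ebf4, Ehmt2 and Grk3. Cnga2, the channel subunit that opens in response to the odour signal, had 0 in every tumour, and Adcy3, the adenylyl cyclase, had 1 in B1 only.

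The summed protein-altering variants of the class I receptors did not separate stiff from soft tumours. They numbered 94, 89 and 97 in stiff tumours and 103, 96 and 88 in soft tumours, with the ranges overlapping. The means were 93.3 ± 4.04 in stiff and 95.7 ± 7.51 in soft tumours (SD, n = 3 each), a difference of -2.33 that became 7.32 when counts were scaled to each tumour's protein-altering total and 1.33 without A1. Of the 34 genes with such a variant in either group, 15 had the higher mean in stiff tumours, 16 the lower and 3 the same.

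The edgeR quasi-likelihood test called 0 of 4312 genes tested between stiff and soft tumours, a background of 0%, and 0 of the 17 class I genes tested, whose smallest adjusted p was 1. At an unadjusted p under 0.05 it counted 106 genes, 0 of them class I, and DESeq2 called 0. The median log2 difference was 0 over all genes and 0 over the class I genes. Protein-altering counts of stiff and soft tumours did not overlap in 0.57% (higher) and 1.3% (lower) of all genes with a variant, and in 0 of the 34 class I genes. For coding counts the shares were 0.798% (higher) and 1.43% (lower), and 0 of 42 class I genes.

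The largest mean differences were those of Olfr612, lower in stiff tumours, and Olfr639, higher in them. Olfr612 averaged 0 protein-altering variants in stiff and 2.67 ± 4.62 in soft tumours, all 8 of them in A1, and Olfr613 averaged 0 and 2.00 ± 3.46, all 6 in A3. Olfr639 averaged 18.7 ± 2.52 in stiff and 16.3 ± 1.53 in soft tumours, a log2 difference of 0.19 (edgeR, adjusted p = 1). Olfr609 averaged 29.3 ± 2.08 and 28.0 ± 4.36, a log2 difference of 0.07 (edgeR, adjusted p = 1).

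Genes with a HIGH-impact variant numbered 5 in each stiff tumour and 7, 8 and 7 in soft tumours, so these counts did not overlap. Over all protein-coding genes the number was 1820, 1703 and 1421 in stiff and 1711, 2043 and 1826 in soft tumours, where the groups overlapped. The summed HIGH-impact variants of the class I genes, 17, 15 and 13 in stiff and 19, 16 and 18 in soft tumours, overlapped too. So did their coding sums and the numbers of class I genes with a coding or a protein-altering variant. Coding variants were also summed in the 110 genes without the 4 highest, a set trimmed after the values were seen. In these 110 genes they numbered 37, 41 and 47 in stiff and 55, 50 and 54 in soft tumours, without overlap. Coding variants over all protein-coding genes numbered 17096, 16260 and 15486 in stiff and 16634, 19459 and 17804 in soft tumours, and overlapped. MODIFIER variants over all protein-coding genes numbered 379517, 357191 and 335629 in stiff and 381482, 452751 and 410581 in soft tumours, without overlap. The part of these totals in the lower sums of the 110 genes was not tested. No test was made on these sums.

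Between KO and WT hosts the sums again overlapped. Protein-altering variants of the class I genes numbered 102, 90 and 101 in KO host tumours and 103, 104 and 96 in WT host tumours. The means were 97.7 ± 6.66 and 101 ± 4.36 (SD, n = 3 each), a difference of -3.33 that turned to 24.8 when scaled to each tumour's total and to 0.5 without B5. Of the 38 genes with such a variant, 13 had the higher mean in KO host tumours, 17 the lower and 8 the same.

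The edgeR test called 0 of 5309 genes between KO and WT hosts, a background of 0%, and 0 of the 25 class I genes tested. The smallest adjusted p of a class I gene was 1. At an unadjusted p under 0.05 it counted 199 genes, 1 of them class I, and DESeq2 called 0. The class I gene was Olfr551, which had variants in WT host tumours only, so nothing is read from it. The median log2 difference was -0.31 over all genes and 0 over the class I genes.

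Protein-altering counts did not overlap, on the higher side, in 1 of 38 class I genes, against 0.416% of all genes, and on the lower side in 1, against 2.41%. Coding counts gave the same 2 genes, 1 in each direction among 46, against 0.565% (higher) and 2.82% (lower). The higher gene was Olfr549 (ENSMUSG00000073977), with 3 protein-altering variants in each KO host tumour and 2 in each WT host tumour. Its log2 difference was 0.56 (edgeR, adjusted p = 1), and gel tumours ranged from 0 to 2. The lower gene was Olfr551 (ENSMUSG00000073974), near Olfr549 in the gene order, with Olfr550 and Trim21 between them. Olfr551 had 0 in each KO host tumour and 3, 3 and 4 in WT host tumours. The difference in means was -3.33, and no fold is given against a group at 0. Olfr551 entered the test only through WT host tumours, so nothing is read from its adjusted p of 1 (edgeR). In gel tumours Olfr551 was at 0 but for 2 in A9.

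Olfr603 had the largest difference in the higher direction, with 18, 11 and 13 protein-altering variants in KO host and 13, 9 and 8 in WT host tumours. The groups overlapped, and the log2 difference was 0.48 (edgeR, adjusted p = 1). Olfr609 averaged 25.0 ± 1.00 in KO host and 24.7 ± 1.15 in WT host tumours, a log2 difference of 0.02 (edgeR, adjusted p = 1). Both the KO and the WT host values of Olfr639 lay at 15 or 16.

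All 6 host tumours were then set against all 6 gel tumours, which differ in the host, the gel and possibly the sequencing run, so these cannot be told apart. Protein-altering variants of the class I genes averaged 99.3 ± 5.35 in host and 94.5 ± 5.54 in gel tumours (SD, n = 6 each), a difference of 4.83 that was -14.6 after scaling to each tumour's total. The ranges overlapped. Of the 48 genes with such a variant, 27 had the higher mean in host tumours, 17 the lower and 4 the same, and for MODIFIER variants 72 were higher and 32 lower.

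The edgeR test called 0 of 6830 genes between host and gel tumours, a background of 0%, and 0 of the 28 class I genes tested. At an unadjusted p under 0.05 it counted 740 genes, 4 of them class I, and DESeq2 called 4 genes, 0 of them class I. The median log2 difference was 0.34 over all genes and 0.54 over the class I genes tested, and the class I value moved with the setting and with single tumours. It was 0.21 without B4, against 0.25 over all genes, and 0.80 without A1, without A2 or without A3, against 0.34 to 0.43. Without A9 and B5 together it was 0.26, against 0.40. With LOW-impact variants it was 0.04, against 0.31, and with HIGH-impact variants only -0.21, against 0.29. With no filter on low counts it was 0.23, against 0.20, after scaling to totals 0.33, against 0.03, and with members taken by position 0.24. Protein-altering counts without overlap were found in 0 of 48 class I genes, against 0.118% (higher) and 0% (lower) of all genes. Coding counts gave 0 of 57, against 0.142% and 0%.

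The 4 class I genes at an unadjusted p under 0.05 were Olfr616, Olfr605, Olfr584 and Olfr640. All 4 had no protein-altering variant in any gel tumour, so they entered the test only through host tumours, and nothing is read from their p-values. None had one in every host tumour. Olfr616 (ENSMUSG00000047544) had 3, 0 and 0 in KO host tumours and 1, 2 and 4 in WT host tumours, against 0 in each gel tumour. Only A1 of the gel tumours had a coding variant of Olfr616, with 1. Olfr605 had 3, 0 and 0 in KO host and 2, 2 and 0 in WT host tumours, with B4, B1 and B2 above the rest.

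Of the 4 highest genes, Olfr609, Olfr639 and Olfr589 had the lower mean in host tumours and Olfr603 the higher, and the groups overlapped in each. Olfr609 averaged 24.8 ± 0.983 protein-altering variants in host and 28.7 ± 3.14 in gel tumours, a log2 difference of -0.21 (edgeR, adjusted p = 0.660). Olfr639 averaged 15.2 ± 0.408 and 17.5 ± 2.26, a log2 difference of -0.20 (edgeR, adjusted p = 0.761). Olfr589 averaged 8.67 ± 1.51 in host and 9.33 ± 1.37 in gel tumours, and Olfr603 12 ± 3.58 in host and 11.8 ± 2.64 in gel tumours. The other 110 genes had 48 to 83 coding variants in host tumours and 37 to 55 in gel tumours, with only B5 inside the gel range. Their mean was 39.4% higher in host tumours, against 25.4% over all protein-coding genes and 20.1% over other numbered Olfr genes. The set of 110 was trimmed after the values were seen, and Olfr609, Olfr639 and Olfr589, lower in host tumours, were left out of it. Over all 114 class I genes the mean coding sum was only 7.64% higher in host tumours, below both backgrounds, and the groups overlapped. B5 also had the fewest coding variants over all genes, 14434. The part of these totals in the difference of the 110 genes was not tested.

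**Figure D5:**
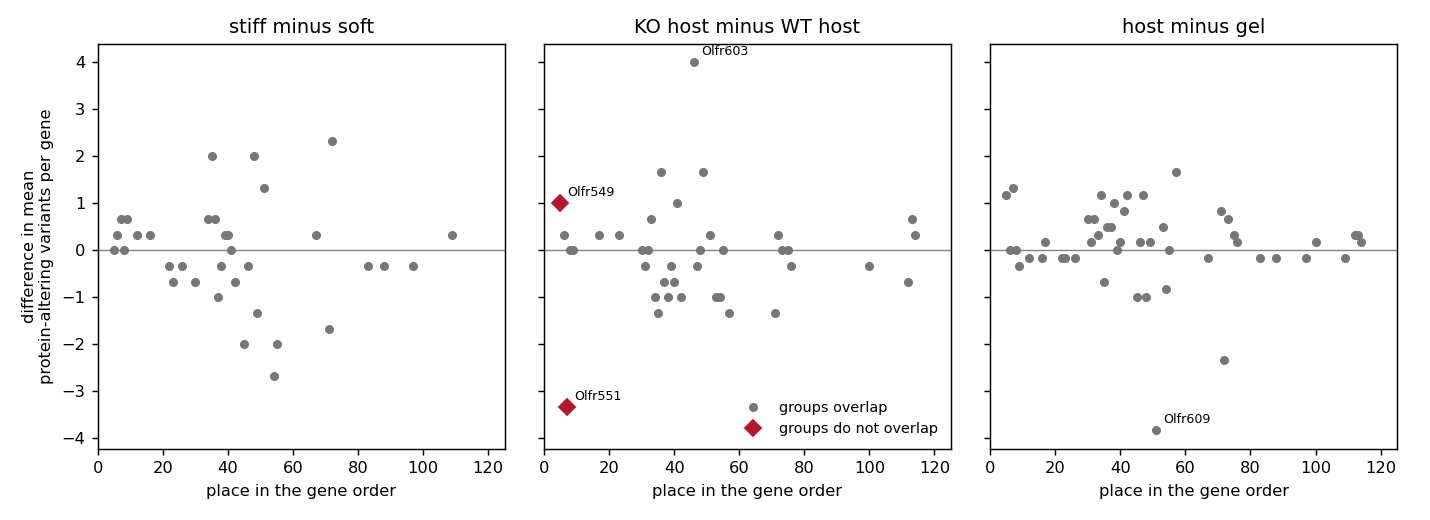
Difference in mean protein-altering variants per gene for each comparison, over the class I receptor genes with such a variant, placed in their order along chromosome 7. Grey points are genes whose groups overlap and red diamonds those that do not, which are Olfr549 and Olfr551 between KO and WT hosts.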

How the data were processed

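Whole-exome sequencing covered 12 tumours and 2 tails, and the tails were not analysed here. The SureSelectXT capture was read as 150 bp pairs to over 50x, about 6 Gb a sample, per the labels' protocols. The submitters' processing notes name GRCm39 as build and list BWA 2.2.1, SAMtools 1.19.2 and GATK. How variants were called and filtered, and whether tails served as normals, is not given in the sources used here.

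Each deposited table gives variant counts for each transcript, split by impact and effect, as snpEff wrote them per the file headers. Position, allele fraction and read depth are not in them. The sequencing depth behind a count is therefore unknown, and no interval is given.

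Per gene and impact class the maximum over protein-coding transcripts was taken, and an unlisted gene was set to 0. A gene none of whose transcripts is listed in any tumour is not among those counted. If transcripts differ in the impact of a variant, it can enter more than 1 class. Gene order, chromosome and names came from a RefSeq gene table of GRCm38.p6, and windows from RefSeq on the same build; this differs from the build of the files, so no variant was placed on them. Close paralogs can exchange reads when they are aligned, and how the authors' processing handled this is not given in the sources used here.

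Protein-altering counts were tested with the quasi-likelihood test of edgeR 4.0.16 in R 4.3.3, without library-size scaling. Genes summing to 3 or more in the tumours compared were tested, with Benjamini-Hochberg adjustment over all of these and a threshold of 0.05. The procedure was first tested on simulated data. The simulation placed changes only in genes with higher mean counts, so it does not show what the test would find in genes with few variants. DESeq2 1.42.0 was the alternative tool. Other alternatives changed the collapse of transcripts, impact classes, biotypes, membership by position, scaling, filter and tumours included.

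The members and the gene lists were chosen with earlier results of these data known. The receptors named are the 10 with the highest mean coding count, the 8 with the highest mean HIGH count, the 5 with the widest range, those with an identical protein-altering count above 0 in all tumours, those whose groups do not overlap, and Olfr544 and Olfr558. The receptors named beside these, and the runs of neighbouring genes, were chosen after their values were seen. Labels put each tumour in its group, and p-values measure only the spread between these tumours.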

Additional observations from a re-analysis of the deposited data

Results flagged for a closer look

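Among 46 series of counts over 6 gel or 6 host tumours, 9 had a tumour farther from the others than Dixon's 95% value allows. The chance rate of about 1 in 20 holds for continuous values, not for small whole counts with ties. A tumour that differs by 1 from equal counts in all others is flagged, as with Olfr596 and Olfr616. A series with the same count throughout cannot be flagged. The 9 are therefore not compared with chance. Tumour A9 accounted for 5 of them. The summed MODIFIER count of the class I receptors was 1059 in A9, with the nearest gel tumour at 1356. Coding variants of Olfr551 numbered 3 in A9 against 0 in the other gel tumours, those of Olfr553 numbered 6 against at most 4, and those of Olfr596 numbered 6 against 5. Olfr592 had 1 in A9, with the nearest gel tumour at 6.

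Tumour A1 stood apart in Olfr612, with 16 coding variants against 3 in each other gel tumour, and in Olfr616, with 1 against 0. Olfr613 had 12 in A3, with the nearest gel tumour at 2. Among host tumours, Olfr640 had 3 in B4, with the nearest at 1. No explanation of these values was tested.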

How the results depend on the processing

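The count of class I receptors called by a test was 0 in each comparison and stayed 0 in 55 alternative fits. The log2 differences of the single receptors followed stayed short of the threshold and did not turn sign in 209 of 214 gene-by-setting refits, 3 of them at exactly 0. The 5 that turned sign, and the 3 at 0, all concern Olfr609. Between KO and WT hosts its log2 difference became -0.013 with LOW-impact variants, -0.17 with HIGH-impact variants only and -0.0097 without A9 and B5, and ran from -0.0097 to 0.059 with 1 tumour left out. Between stiff and soft tumours it ran from -0.0081 without A3 to 0.20 without A1. Adjusted p of the receptors ranged from 0.522 to 1 for stiff against soft, from 0.572 to 1 for KO against WT hosts and from 0.360 to 0.995 for host against gel tumours, taking the smallest in each fit. Between host and gel tumours, scaling to totals called 2 genes and leaving out A2 called 3, none of them class I. The summed protein-altering difference moved by more than the spread between tumours when counts were scaled to each tumour's total, to 7.32 for stiff minus soft, 24.8 for KO minus WT hosts and -14.6 for host minus gel, which turned the sign each time. Scaling also moved the median log2 difference over all genes from 0 to 0.13, from -0.31 to 0.00 and from 0.34 to 0.03. Taking members by position made the KO minus WT difference -9, and adding LOW-impact variants made the host minus gel difference 10.8. Leaving out 1 tumour at a time gave -6.17 to 1.33 for stiff minus soft, -5.83 to 0.5 for KO minus WT hosts and 3.53 to 6.7 for host minus gel; the sign turned without A1 in the gel comparison and without B5 in the host comparison. Without A9 and B5 together the differences were -4.17, 0.5 and 7.2. The cause of these shifts was not tested. Stiff and soft tumours share no replicate number, nor do KO and WT host tumours. Soft and WT host tumours share 1 to 3, but same-numbered tumours did not deviate together (correlations across genes of -0.012 to 0.033). With these numbers as a replicate block, chosen after the data were seen, the host against gel fit called 0 class I genes and 1 gene in all. The unknown read depth limits every count.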
